A study of Mus musculus with 6 samples.

Results

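The 43 genes described here drive or mark cell division. They were chosen by name for their roles, with earlier results of these data known: 16 act in S phase, 22 act in mitosis, 2 encode the D-type cyclins *Ccnd2* and *Ccnd3*, and 3 (*Hmgb2*, *Stmn1* and *Tubb5*) encode chromatin and microtubule proteins that dividing cells use. All 43 were found among the 78275 genes of the deposited table, and all 43 were among the 16105 genes with enough counts to be tested. RNA had been sequenced from CD4-CD8+ T cells with high TCRβ, 1 library per mouse, from 3 wildtype (WT) and 3 BIT mice on the C57BL/6 background. BIT mice are homozygous for a germline allele that places the sequence of *Psmb11*, encoding the thymoproteasome subunit β5t, into *Psmb8*, encoding the immunoproteasome subunit β5i, so that β5i is lost and β5t is made in every cell that uses the *Psmb8* promoter. WT mice carry both genes unaltered, and the labels name no treatment for either genotype. The mice are labelled as males of 9 to 10 weeks, the cells as lymph node cells, although the protocol names spleens as well. Several BIT lines were engineered, and the labels do not say which was sequenced. For these genes the comparison bears on whether peripheral CD8+ T cells of BIT mice differ from those of WT mice in their program of division. The sequenced BIT cells carry the allele themselves, so their development in a BIT thymus and their own changed proteasome cannot be told apart.

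The libraries held between 37467678 and 52922675 estimated counts. *Psmb8* had between 8024 and 10790 counts in WT mice and between 59 and 73 in BIT mice, and *Psmb11* had 0 in each WT mouse and 1226 to 1926 in the BIT group, so these libraries carry the genotype of their labels. WT replicate 3 went against its label in another respect: it held 66626 counts of *Xist*, the RNA of the inactive X chromosome, against at most 125 in any other library, and 0 counts of 4 Y-linked genes, which totalled between 8474 and 12329 elsewhere. The first principal component took 34.4% of the variance and set the third mouse of both genotypes apart, at scores of 54.6 (WT) and 28.6 (BIT) against -36.5 to -3.31 in the other 4. The fitted differences of the members that rest on WT replicate 3 are therefore given with and without it. The summed level of 9 CD8 T cell markers was between 4640 and 5160 CPM (counts-per-million of the library total) in all 6 libraries, against 3.22 to 5.68 CPM for 4 markers of CD4 T cells.

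A resting T cell sits outside the cycle. When it is driven to divide, D-type cyclins with CDK4 or CDK6 phosphorylate the retinoblastoma family and free E2F factors, which switch on cyclin E and the replication genes; the MCM helicase is then loaded at origins, and ribonucleotide reductase and thymidylate synthase supply the nucleotides. Later genes, among them cyclin B, Cdk1, Aurora and Polo kinases, spindle motors and kinetochore proteins, come on in G2 and mitosis, and in resting cells the DREAM complex holds them silent through a promoter element named the cell cycle homology region. Naive CD8+ T cells in lymph nodes are mostly resting and express *Ccnd2* and *Ccnd3*, while a small dividing minority carries most of the mitotic transcripts.

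The levels spanned more than 3 orders of magnitude. Per kilobase of annotated exon, *Tubb5* (a β-tubulin) was highest at a mean of 375 CPM per kb over the 6 libraries, followed by *Ccnd2* at 82.2, *Pcna* (the sliding clamp of DNA polymerases) at 43.6 and *Ccnd3* at 17.3 CPM per kb. The 6 MCM genes came between 6.35 (*Mcm5*) and 15.3 CPM per kb (*Mcm6*), and *Mcm6* and *Mcm4* (15.2 CPM per kb) did not differ beyond the spread of the libraries, which ran from 13.3 to 17.0 for *Mcm6* and from 12.4 to 16.6 for *Mcm4*. The highest mitotic genes on this scale were *Top2a* (topoisomerase IIα) at 2.30 and *Mki67* (the chromosome surfactant Ki-67) at 2.27 CPM per kb. Their ranges of 1.46 to 3.51 and 1.23 to 5.03 overlapped. The lowest was *Bub1*, a spindle checkpoint kinase, at 0.147 CPM per kb. The replicative helicase and the clamp were thus listed well above the mitotic machinery on this scale, with no member at 0 in any library. The divisor counts every annotated exon of a gene, such as 13355 bases for *Cenpa*. A gene whose expressed transcript is shorter is listed too low, so the order of single genes is uncertain. In plain CPM the means were 43.4 to 82.9 for the MCM genes and at most 23.3 for a mitotic gene.

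**Figure D1:**
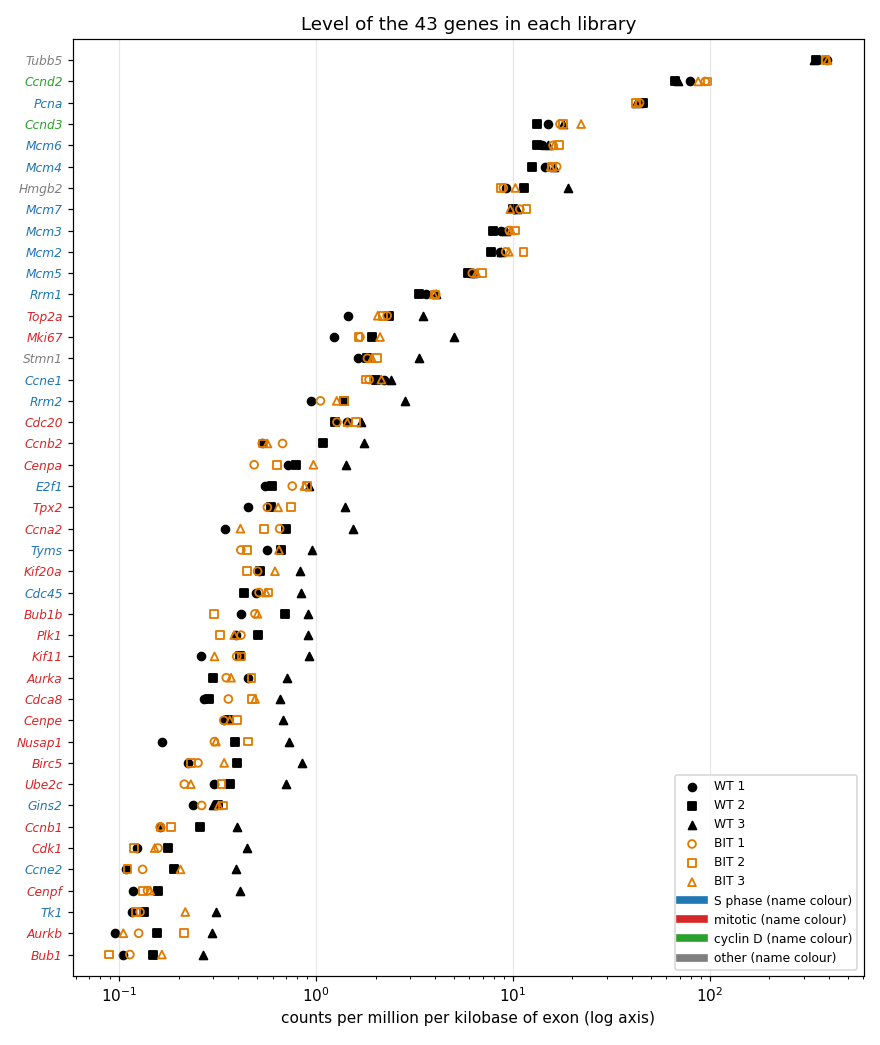
Level of each of the 43 genes in each library, in CPM per kilobase of exon on a log axis, ordered by the mean; filled black marks are WT mice, open orange marks BIT mice, and the colour of a gene's name gives its group. *Tubb5* is at the top with a mean of 375 and *Bub1* at the bottom with 0.147, and in all 22 mitotic genes the WT 3 triangle lies to the right of the other 5 libraries.

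None of the 43 genes passed an adjusted p of 0.05 between BIT and WT mice (limma-voom with quantile normalization and Benjamini-Hochberg adjustment over all genes tested), where 22 genes or 0.137% of all genes were called, and the smallest adjusted p of a member was 0.358. At an unadjusted p below 0.05, 2 members were higher in BIT mice, *Ccnd2* and *Ccnd3*, where 4.25% of all genes were, and 1 was lower, *Tyms*, where 4.32% of all genes were. The groups did not overlap on the normalized log2 scale for 5 members higher in BIT mice (*Ccnd2*, *Mcm2*, *Mcm3*, *Mcm6* and *E2f1*), against 7.38% of all genes, and for 2 lower ones (*Ccne1* and *Tyms*), against 5.96%. On plain CPM, a scale added after the values were seen, they did not overlap for 4 higher members (the same without *E2f1*), against 6.09% of all genes, and for 0 lower ones, against 6.69%. The count at an unadjusted p below 0.05 was 6 with edgeR's quasi-likelihood test (7.44% of all genes) and 7 with DESeq2 (7.21%), and *Mcm2* and *Mcm6*, both higher in BIT mice, and *Hmgb2*, lower, were counted by both. At an adjusted p below 0.05 both tools called 0 members, against 0.0869% and 0.94% of all genes. The counts of 2 and 1 of 43 by limma-voom lay near or below the shares of all genes, whereas those by edgeR and DESeq2, and that of the 5 members higher without overlap, lay above them. Because bulk RNA was sequenced, a smaller share of dividing cells and less RNA per dividing cell cannot be told apart.

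The median fold change on the log2 scale (log2FC, BIT minus WT, fitted by limma-voom, with its standard error, SE) was 0.05 over the 16 S phase genes (11 above 0, 5 below), -0.29 over the 22 mitotic genes (4 above, 18 below) and 0.31 over the 2 D cyclins, beside 0.01 over all genes tested. The fold changes of the mitotic genes reached from -0.64 (*Ccnb2*) to 0.36 (*Cdca8*), and each of their 95% confidence intervals held 0. With TMM normalization 9 of the S phase genes and 2 of the mitotic genes were above 0, and the medians were 0.08 and -0.36. Without WT replicate 3 the mitotic median was -0.02, with 10 genes above 0 and 12 below, while the S phase median was 0.13 (13 of 16 above 0) and that of the D cyclins 0.34.

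**Figure D2:**
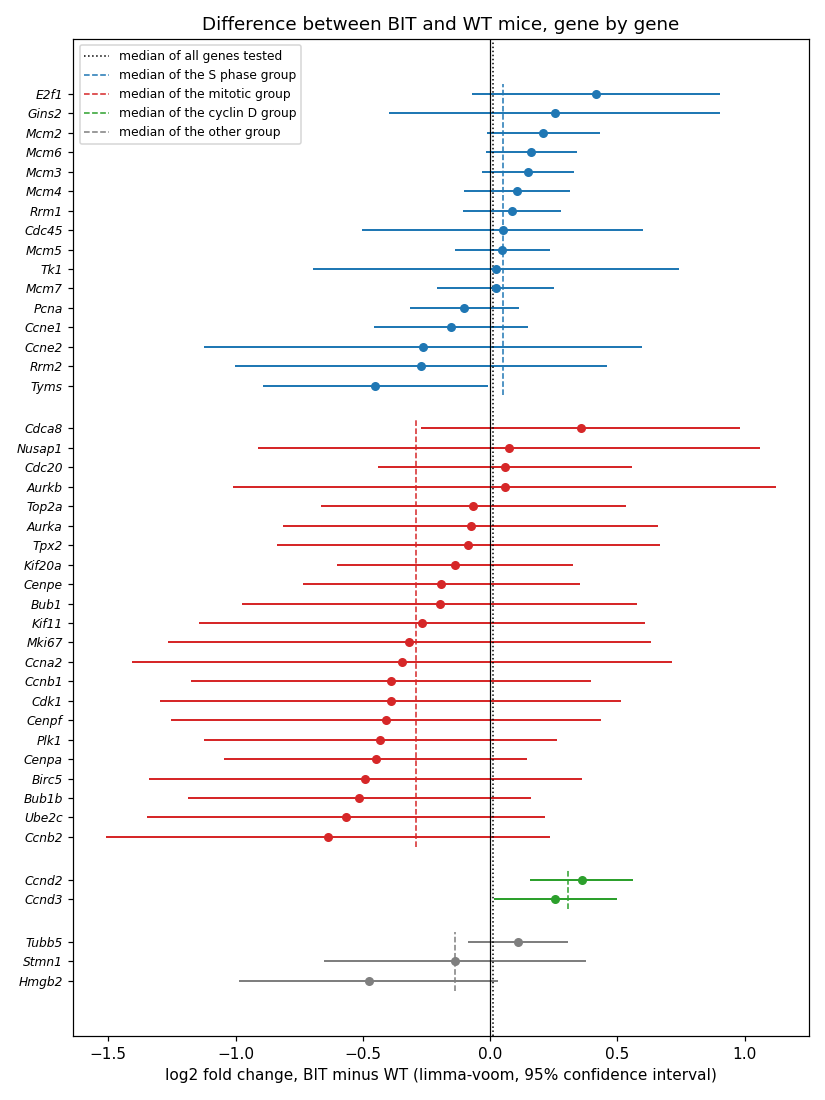
Fold change of each gene between BIT and WT mice on the log2 scale (points) with its 95% confidence interval (bars) by limma-voom; dashed lines are the group medians and the dotted line is the median of all genes. The intervals of *Ccnd2*, *Ccnd3* and *Tyms* exclude 0, and all 22 mitotic intervals include it.

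The S phase genes begin with the regulators of G1 to S. *E2f1*, the activator E2F that turns on replication genes, was at 1.89, 2.06 and 3.18 CPM in WT mice and 2.61, 3.11 and 3.02 CPM in BIT mice. On this scale WT replicate 3 lay above every BIT mouse, whereas after quantile normalization all 3 BIT mice lay above all 3 WT mice, with a log2FC of 0.41 ± 0.213 (SE, adjusted p = 0.64 by limma-voom), which was 0.49 without WT replicate 3. *Ccne1*, the cyclin E that works with CDK2 at the start of S phase, was at 8.01, 7.32 and 8.66 CPM in WT mice and 6.73, 6.49 and 7.77 CPM in BIT mice. In CPM the highest BIT mouse overlapped the WT mice, on the normalized scale none did, and the log2FC was -0.15 ± 0.132 (SE, adjusted p = 0.766). *Ccne2*, its paralogue, was at 0.605, 1.07 and 2.20 CPM in WT mice and 0.737, 0.618 and 1.15 CPM in BIT mice, with WT replicate 3 highest and a log2FC of -0.26 that was 0.01 without that library.

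The MCM genes encode the 6 subunits of the ring that unwinds DNA at the fork. All 6 had a fitted log2FC above 0, with a median of 0.13, also with TMM normalization (0.18), with edgeR (0.18) and without WT replicate 3 (0.17), while without WT replicate 1, BIT replicate 1 or BIT replicate 2 it was 5 of 6. *Mcm2* was at 68.3, 61.3 and 68.8 CPM in WT mice and 72.6, 89.3 and 75.4 CPM in BIT mice. The lowest BIT mouse was above the highest WT mouse, and the log2FC was 0.21 ± 0.096 (SE, adjusted p = 0.608 by limma-voom, exact permutation p = 0.1, the smallest that 3 mice against 3 allow). *Mcm3* was at 54.1, 49.2 and 57.7 CPM in WT mice and 59.9, 64.2 and 61.1 CPM in BIT mice, again without overlap, with a log2FC of 0.15 ± 0.0774 (SE, adjusted p = 0.643). *Mcm6*, described after its values were seen, was at 76.2, 72.2 and 82.1 CPM in WT mice and 86.6, 92.5 and 87.8 CPM in BIT mice. Its groups did not overlap either, and its log2FC was 0.16 ± 0.0768 (SE, adjusted p = 0.621). *Mcm5* was at 42.7, 40.6 and 42.8 CPM in WT mice and 42.4, 47.6 and 44.5 CPM in BIT mice, which overlapped, with a log2FC of 0.05 (95% confidence interval -0.14 to 0.23). *Mcm4* and *Mcm7* lay at log2FC values of 0.11 and 0.02, and their groups overlapped. In 5 of the 6 MCM genes the highest library was BIT replicate 2, and in none was it WT replicate 3.

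The promoters of *Mcm5* and *Mcm6* are given here because E2F sites are known to switch S phase genes on together and because the S phase and mitotic genes differ in such letters. The 170 bases before the start of the Ensembl canonical transcript in Gencode M39 are from GRCm39, 5′ to 3′ on the strand of the gene. They lie at chr8:75835970-75836139 (plus strand) for *Mcm5* and chr1:128287453-128287622 (minus strand) for *Mcm6*. Capitals mark the E2F cores TTCCCGC and TTGGCGC, the CCAAT box and the cell cycle homology region TTTGAA or TTCGAA, each on either strand (TTGGCGC reads GCGCCAA and CCAAT reads ATTGG on the other strand).
Mcm5: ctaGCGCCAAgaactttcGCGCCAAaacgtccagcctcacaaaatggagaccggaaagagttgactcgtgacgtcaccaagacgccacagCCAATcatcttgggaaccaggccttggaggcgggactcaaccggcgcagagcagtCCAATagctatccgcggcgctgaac
Mcm6: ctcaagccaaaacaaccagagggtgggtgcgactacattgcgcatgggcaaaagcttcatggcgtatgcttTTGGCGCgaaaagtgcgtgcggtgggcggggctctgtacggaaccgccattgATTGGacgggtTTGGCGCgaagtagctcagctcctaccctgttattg
Each stretch holds 2 E2F cores and 0 cell cycle homology regions, with 2 CCAAT boxes in *Mcm5* and 1 in *Mcm6*.

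At the replication fork, *Pcna* was at 109, 110 and 101 CPM in WT mice and 105, 101 and 103 CPM in BIT mice. Its groups overlapped and its log2FC was -0.10 (95% confidence interval -0.31 to 0.11). *Cdc45* and *Gins2*, which join the MCM ring to make the active helicase, were low, with 90 to 145 and 48 to 66 counts per library, and had log2FC values of 0.05 and 0.25 with standard errors of 0.242 and 0.284, and of 0.17 and 0.13 without WT replicate 3. With TMM normalization that of *Cdc45* was -0.03.

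Among the nucleotide genes, *Tyms*, which encodes thymidylate synthase, was at 3.63, 4.27 and 6.13 CPM in WT mice and 2.68, 2.88 and 4.19 CPM in BIT mice. The highest BIT mouse, replicate 3, lay between the WT mice on this scale, while after quantile normalization all BIT mice lay below all WT mice. The log2FC was -0.45 ± 0.193 (SE, unadjusted p = 0.0444 and adjusted p = 0.571 by limma-voom), and -0.37 without WT replicate 3 with an unadjusted p of 0.102. *Rrm2*, the regulated subunit of ribonucleotide reductase, was at 3.12, 4.59 and 9.34 CPM in WT mice and 3.49, 4.61 and 4.22 CPM in BIT mice. WT replicate 3 stood above the 5 other libraries, and the log2FC of -0.27 ± 0.32 (SE) was 0.03 without it. *Rrm1*, the large subunit of the same enzyme, was at 39.2 to 47.7 CPM in WT mice and 46.4 to 47.6 CPM in BIT mice, with a log2FC of 0.09. *Tk1*, thymidine kinase of dividing cells, had 34 to 82 counts per library and a log2FC of 0.02 ± 0.314 (SE), which was 0.26 without WT replicate 3, -0.15 with TMM normalization and -0.25 with edgeR.

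The mitotic genes were led by 1 WT mouse. Their summed level was 64.2, 90.2 and 178 CPM in WT mice and 78.0, 80.9 and 87.7 CPM in BIT mice. WT replicate 3 stood far above every other library, and the 3 BIT mice lay between the 2 other WT mice. On plain CPM all 22 mitotic genes were highest in WT replicate 3, where 30.8% of all genes were, and after quantile normalization 19 of 22 (86.4%) were, where 17.1% of all genes were. The S phase genes were highest in that library in 8 of 16 and 5 of 16. The median pooled SD between mice of a genotype was 0.436 on the log2 scale for the mitotic genes and 0.123 for the S phase genes, beside 0.212 for all genes tested. The part of it that counting alone gives was 0.14, 0.0559 and 0.0718.

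**Figure D3:**
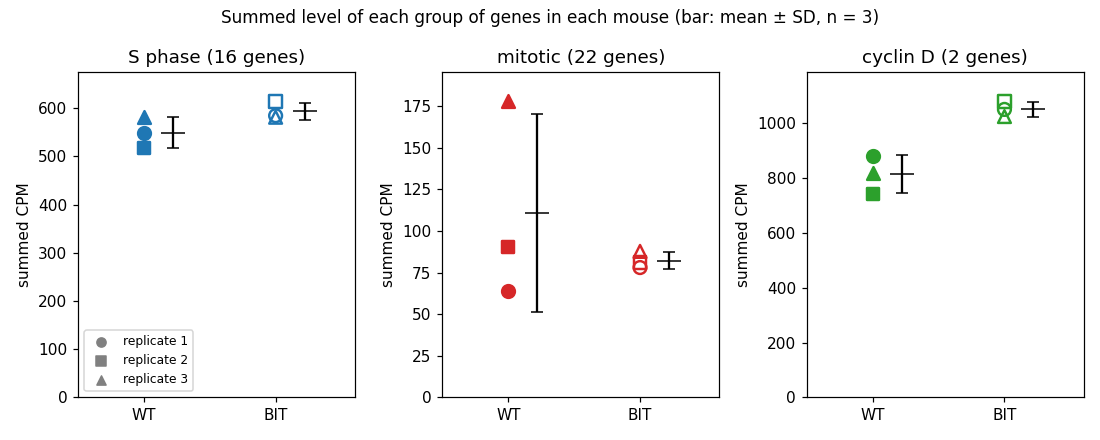
Summed level of the S phase, mitotic and cyclin D genes in each mouse, in CPM on axes that start at 0, with the mean ± SD of 3 mice beside the points. WT replicate 3 stands at 178 for the mitotic genes, against 64.2 to 90.2 in the other 5 mice, and the 3 BIT mice lie above the 3 WT mice for the D cyclins.

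*Mki67*, whose protein coats mitotic chromosomes and is the usual label of cycling cells, was at 12.6, 19.7 and 51.7 CPM in WT mice (668, 998 and 2064 counts) and 17.1, 16.8 and 21.7 CPM in BIT mice (766, 708 and 811 counts). WT replicate 3 was above all other libraries and WT replicate 1 below them. The log2FC was -0.32 ± 0.416 (SE, adjusted p = 0.853 by limma-voom) with all 6 libraries and 0.18 ± 0.197 (SE, adjusted p = 0.737) without WT replicate 3. *Top2a*, which untangles sister chromosomes, was also highest in WT replicate 3 and lowest in WT replicate 1, at 13.3, 21.4 and 31.9 CPM in WT mice and 20.9, 19.8 and 18.7 CPM in BIT mice, with log2FC values of -0.07 and 0.19 with and without that library.

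The kinases and cyclins of mitosis were low. *Cdk1*, the kinase that starts mitosis, was at 0.718, 1.03 and 2.60 CPM in WT mice and 0.916, 0.689 and 0.881 CPM in BIT mice, with a log2FC of -0.39 ± 0.398 (SE) and of -0.06 without WT replicate 3. *Ccna2*, cyclin A, was at 1.40, 2.87 and 6.31 CPM in WT mice and 2.66, 2.21 and 1.68 CPM in BIT mice, and its log2FC of -0.35 was 0.04 without that library. In both genes the BIT mice lay within the range of the WT mice or just under it.
*Ccnb1*, the main partner of Cdk1, was at 0.689, 1.11 and 1.70 CPM in WT mice and 0.693, 0.785 and 0.694 CPM in BIT mice (log2FC -0.39, standard error 0.344, and -0.26 without WT replicate 3). *Ccnb2*, the second cyclin B, was at 1.17, 2.41 and 3.88 CPM in WT mice and 1.50, 1.19 and 1.25 CPM in BIT mice. It had the lowest log2FC of all 43 genes, -0.64 ± 0.383 (SE, adjusted p = 0.68 by limma-voom), with all BIT mice above WT replicate 1 and below WT replicate 2, and -0.42 without WT replicate 3.
*Plk1*, the Polo kinase of spindle assembly, was at 1.12, 1.44 and 2.60 CPM in WT mice and 1.18, 0.927 and 1.09 CPM in BIT mice (log2FC -0.43, standard error 0.304, and -0.27 without WT replicate 3). *Aurkb*, the kinase of the chromosomal passenger complex, was counted 18, 28 and 42 times in the WT mice and 20, 32 and 14 times in their BIT counterparts. At such counts its log2FC of 0.06 had a standard error of 0.468, and it was -0.17 with TMM normalization and -0.26 with edgeR. *Aurka*, the spindle pole kinase, had a log2FC of -0.08, and of 0.06 without WT replicate 3.

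The promoters of *Cdk1* and *Top2a* are shown as the mitotic counterpart of those of *Mcm5* and *Mcm6*. The stretches are again the 170 bases before the start of the canonical transcript in GRCm39, with the same capitals. They lie at chr10:69188769-69188938 (minus strand), inside the annotated *Cdk1* gene, and chr11:98915042-98915211 (minus strand).
Cdk1: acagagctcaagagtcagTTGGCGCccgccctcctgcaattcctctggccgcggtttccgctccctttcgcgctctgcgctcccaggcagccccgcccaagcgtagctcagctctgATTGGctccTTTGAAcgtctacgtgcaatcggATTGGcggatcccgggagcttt
Top2a: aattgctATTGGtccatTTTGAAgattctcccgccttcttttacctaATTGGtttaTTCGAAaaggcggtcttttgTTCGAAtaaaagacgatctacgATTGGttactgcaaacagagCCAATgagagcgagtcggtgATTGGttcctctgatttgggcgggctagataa
*Cdk1* holds 1 E2F core, 1 cell cycle homology region and 2 CCAAT boxes in this stretch, and *Top2a* holds 0, 3 and 5. The printed promoters do not stand for every gene of their groups. In the wider windows described below, *Mcm2* and *Mcm7* held 0 E2F cores, against 3 in *Mcm3* and 1 in *Mcm4*. *Mcm2* held 1 homology region. Of the 22 mitotic genes 13 held a homology region, *Top2a* with 4, while *Aurka*, *Birc5*, *Ccna2*, *Nusap1* and *Tpx2* held none of these motifs.

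Among the passenger and checkpoint genes, *Birc5*, the survivin subunit of the passenger complex, was at 1.02, 1.80 and 3.83 CPM in WT mice and 1.14, 1.05 and 1.55 CPM in BIT mice. Its log2FC was -0.49 ± 0.372 (SE), and -0.18 without WT replicate 3. *Bub1*, *Bub1b* (a further checkpoint gene) and *Cdca8* (borealin of the passenger complex) had log2FC values of -0.20, -0.51 and 0.36, and of -0.04, -0.42 and 0.60 without WT replicate 3, the last with an unadjusted p of 0.0505 and an adjusted p of 0.428.
Of the anaphase-promoting complex, *Cdc20*, its activator, was at 2.78, 2.41 and 3.31 CPM in WT mice and 2.48, 3.09 and 2.80 CPM in BIT mice, with overlapping groups and a log2FC of 0.06 that was -0.01 with TMM normalization. *Ube2c*, its ubiquitin-conjugating enzyme, was at 0.983, 1.19 and 2.28 CPM in WT mice and 0.693, 1.07 and 0.747 CPM in BIT mice (log2FC -0.57, standard error 0.343, adjusted p = 0.681 by limma-voom, and -0.40 without WT replicate 3).
The 3 kinetochore genes *Cenpa*, *Cenpe* and *Cenpf* had log2FC values of -0.45, -0.19 and -0.41 and were all highest in WT replicate 3, without which the values were -0.23, -0.008 and -0.04. So were the 4 spindle genes *Kif11*, *Kif20a*, *Nusap1* and *Tpx2*, with log2FC values between -0.27 and 0.07, of which 3 were above 0 without that library.

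**Figure D4:**
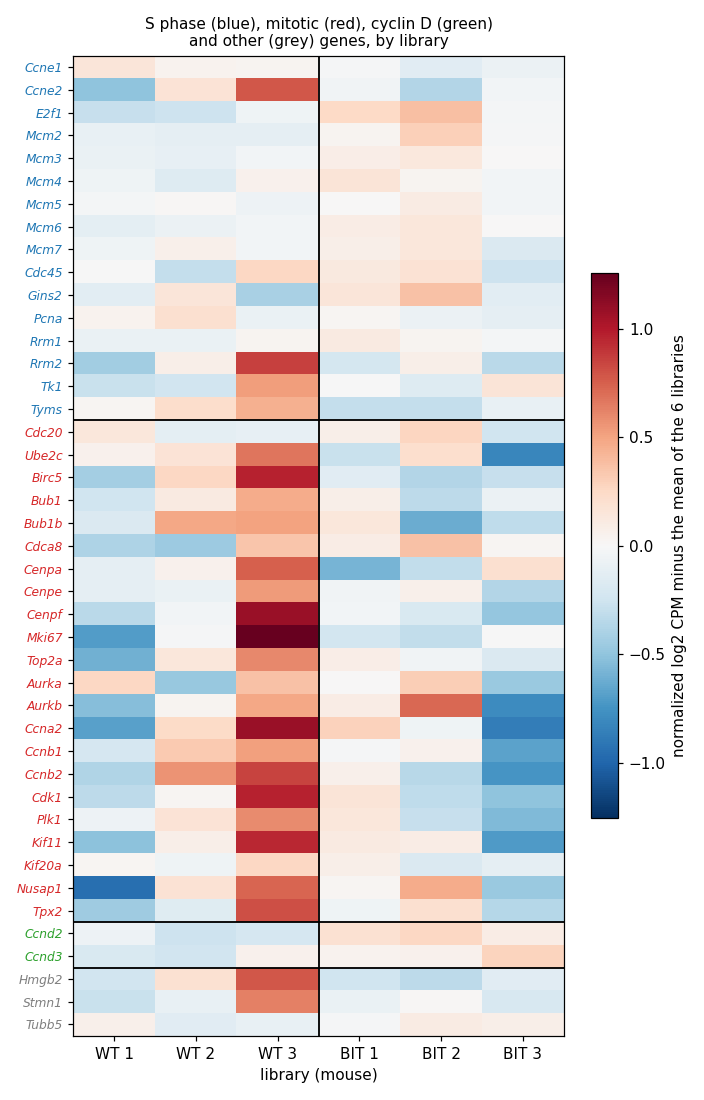
Normalized log2 CPM of each gene in each library minus its mean over the 6 libraries (red above, blue below), with WT mice on the left and BIT mice on the right. Most mitotic genes are red in the WT 3 column (19 of 22 have their highest value there), whereas the MCM genes are pale, with 5 of 6 highest in BIT 2.

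*Ccnd2* and *Ccnd3*, whose products open G1, were the members at an unadjusted p below 0.05 in the upward direction. *Ccnd2*, on chromosome 6 (127102125 to 127129156, ENSMUSG00000000184.13), was at 743, 621 and 651 CPM in WT mice and 890, 913 and 819 CPM in BIT mice, from 25993 to 39844 counts per library. Every BIT mouse was above every WT mouse. The mean was 672 ± 63.8 CPM (SD, n = 3) in WT mice and 874 ± 49.2 CPM (SD, n = 3) in BIT mice. The difference was 1.28-fold, a log2FC of 0.36 with a 95% confidence interval of 0.16 to 0.56 (unadjusted p = 0.00278, adjusted p = 0.358 by limma-voom, exact permutation p = 0.1), and 0.35 without WT replicate 3 (adjusted p = 0.293). *Ccnd3*, on chromosome 17 (47815767 to 47910624, ENSMUSG00000034165.17), was at 138, 122 and 167 CPM in WT mice and 160, 166 and 205 CPM in BIT mice. WT replicate 3 lay just above 2 of the BIT mice, so the groups overlapped. The log2FC was 0.26 with a 95% confidence interval of 0.02 to 0.49 (unadjusted p = 0.0385, adjusted p = 0.559, exact permutation p = 0.2), and 0.34 without WT replicate 3 (unadjusted p = 0.00744, adjusted p = 0.287). The unadjusted p of *Ccnd3* was 0.114 without WT replicate 1, 0.12 without WT replicate 2 and 0.134 without BIT replicate 3, with log2FC values of 0.22, 0.20 and 0.18. Summed, the 2 cyclins were at 882, 743 and 817 CPM in WT mice and 1050, 1079 and 1024 CPM in BIT mice. The third D cyclin, *Ccnd1*, which T cells scarcely use, was no member, with 81, 116 and 67 counts in the WT libraries against 34, 30 and 37 in those of BIT mice, a log2FC of -1.01 (adjusted p = 0.511).

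*Hmgb2*, a chromatin protein of proliferating cells, was at 36.9, 45.4 and 76.4 CPM in WT mice and 35.7, 34.9 and 41.1 CPM in BIT mice. BIT replicate 3 lay above WT replicate 1, and the log2FC was -0.48 ± 0.222 (SE, adjusted p = 0.611 by limma-voom), -0.22 without WT replicate 3 and -0.72 without WT replicate 1. *Stmn1*, which encodes the microtubule destabilizer stathmin, was at 8.19, 9.09 and 16.8 CPM in WT mice and 9.14, 10.2 and 9.64 CPM in BIT mice, with log2FC values of -0.14 and, without WT replicate 3, 0.10. *Tubb5* was at 1312, 1159 and 1128 CPM in WT mice and 1297, 1288 and 1321 CPM in BIT mice, with a log2FC of 0.11 (95% confidence interval -0.09 to 0.30). The groups of all 3 genes overlapped.

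Because so many members were highest in 1 WT mouse, the comparison was repeated with each library left out. Without WT replicate 3, 2 members had an unadjusted p below 0.05 (*Ccnd2* and *Ccnd3*), where 11.7% of all genes had. Without WT replicate 1 there were 7 (7.5% of all genes), of which *Birc5*, *Bub1b*, *Ccnb2*, *Hmgb2*, *Top2a* and *Tyms* were lower in BIT mice, and the mitotic median was -0.60. Without WT replicate 2 there was 1 (4.78%), without BIT replicate 1 there were 2 (6.88%), without BIT replicate 2 there were 2 (3.84%), and without BIT replicate 3 there were 5 (10.8%). *Ccnd2* had an unadjusted p below 0.05 in all 6 of these fits, and no member reached an adjusted p below 0.05 in any of them. In replicates 1 and 2 alone, the mitotic median was 0.09 with 13 of 22 genes above 0, the opposite side of 0 from the fit with all libraries. That fit left out replicate 3 of both genotypes, and with any single mouse left out the mitotic median was between -0.598 and -0.023.

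**Figure D5:**
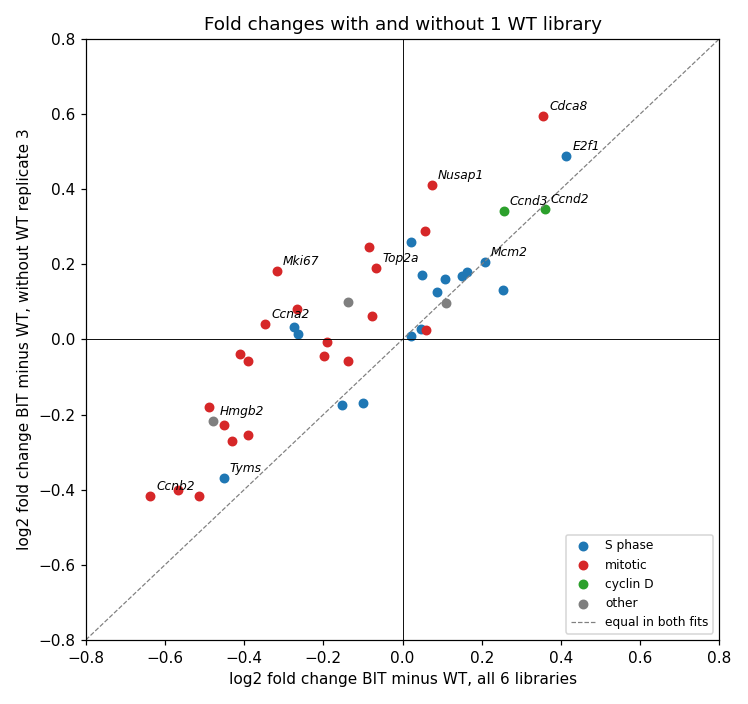
Fold change of each gene with all 6 libraries (horizontal axis) and without WT replicate 3 (vertical axis), both on the log2 scale, with a dashed line where both are equal. Most mitotic genes (red) lie above the line, with *Mki67* moving from -0.32 to 0.18, while *Ccnd2* and *Mcm2* lie close to the line at 0.36 and 0.35 and at 0.21 and 0.21.

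The difference between the mean log2 level of the S phase genes and that of the mitotic genes was 2.555, 2.28 and 1.84 in WT mice and 2.40, 2.45 and 2.70 in BIT mice, so that WT replicate 3 had the least excess of S phase over mitotic transcripts and BIT replicate 3 the most. Within the S phase group the genes did not vary as one. Over the 6 libraries, which were normalized together and include WT replicate 3, the Pearson correlation of the normalized log2 level with that of *Mki67* was 0.96 for *Ccne2*, 0.91 for *Rrm2*, 0.89 for *Tk1* and 0.71 for *Tyms*, but between -0.51 and 0.19 for the 6 MCM genes. *Hmgb2* and *Stmn1* stood at 0.93 and 0.92, and *Ccnd2* at -0.48. On this scale *Mki67* was at 5.642 in WT replicate 3 and at 3.683 to 4.382 elsewhere, so each of these correlations rests largely on that library. Outside the 43 genes, the 5 whose pattern was most like that of *Mki67*, among genes with a mean of at least 1 CPM, were *Gm70362* (0.99), *S100a6* (0.99), *Firre* (0.98), *Gm4739* (0.98) and *Clasrp* (0.98). Like *Mki67*, which chose them, these genes were highest in WT replicate 3, and no correlation is given without it, since 5 libraries would be left. *S100a6*, for example, was at 2.15, 3.60 and 13.1 CPM in WT mice and 2.93, 3.54 and 5.26 CPM in BIT mice.

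The wider pathway was read from 6 lists with 161 genes, of which 155 were tested. Of these, 4 were higher and 7 lower in BIT mice at an unadjusted p below 0.05 by limma-voom, against the 4.25% and 4.32% of all genes given above. None passed an adjusted p of 0.05 in that fit, and the median log2FC was -0.015. The groups did not overlap on the normalized log2 scale for 9 higher and 12 lower genes of the 155, against 7.38% and 5.96% of all genes. On plain CPM they did not overlap for 13 and 17, against 6.09% and 6.69%. Among 22 genes of origin licensing and firing (median -0.056), 1 was counted, *Cdt1*, which loads the MCM ring. It was at 33.8, 25.7 and 34.9 CPM in WT mice and 37.1, 42.7 and 37.3 CPM in BIT mice, without overlap (log2FC 0.30, standard error 0.116, adjusted p = 0.553 by limma-voom). Among 33 genes of fork enzymes and nucleotide supply (median 0.05), 1 was counted, *Rfc1*, the large subunit of the clamp loader. It was at 71.8, 64.2 and 69.5 CPM in WT mice and 82.4, 91.3 and 92.5 CPM in BIT mice, also without overlap (log2FC 0.32, standard error 0.0754). Its adjusted p was 0.349 by limma-voom and 0.032 by DESeq2.
Among 50 tested genes of spindle, kinetochore and cytokinesis the median was -0.11, with 17 above 0 and 33 below, and -0.005 without WT replicate 3. *Kif23*, a kinesin of the cleavage furrow, was at 13.4, 12.9 and 14.6 CPM in WT mice and 9.81, 8.87 and 11.7 CPM in BIT mice (log2FC -0.42, adjusted p = 0.454). *Smc4*, a condensin subunit, had a log2FC of -0.28, and *Racgap1*, which pairs with Kif23 at the furrow, had one of 0.19. Their groups did not overlap either. On plain CPM 39 of the 50 genes (78.0%) were highest in WT replicate 3, where 30.8% of all genes were. After quantile normalization 23 of the 50 (46.0%) were, where 17.1% of all genes were.

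Of 14 tested CDK and G1 cyclin genes (median -0.009), 1 was lower, *Ccnd1*. Of 18 E2F and DREAM genes (median 0.053), 1 was higher and 1 lower, and of 18 tested CDK inhibitors and quiescence genes (median -0.026), 3 were lower, again at an unadjusted p below 0.05. *Cdkn1b*, which encodes the CDK inhibitor p27, was at 193, 187 and 196 CPM in WT mice and 159, 148 and 180 CPM in BIT mice. All BIT mice were below all WT mice, with a log2FC of -0.31 ± 0.0841 (SE, unadjusted p = 0.00522, adjusted p = 0.424 by limma-voom). *Rb1*, the retinoblastoma protein, was at 31.9, 30.2 and 39.2 CPM in WT mice and 25.3, 25.6 and 33.5 CPM in BIT mice, which overlapped (log2FC -0.29, adjusted p = 0.559), while its relative *Rbl2*, the pocket protein of the resting-cell DREAM complex, had a log2FC of 0.02 (adjusted p = 0.955). *Cdkn1a*, encoding p21, was counted 7, 31 and 28 times in the WT mice and 4, 5 and 7 times in their BIT counterparts, too few to be tested.
Of the other genes of these lists at an unadjusted p below 0.05, *Tfdp1*, the DNA-binding partner of E2F, had a log2FC of 0.25 (adjusted p = 0.559), *Slfn2*, a quiescence gene of T cells, one of -0.25 (adjusted p = 0.575) and *Klf4*, a brake on T cell proliferation, one of -1.50 (adjusted p = 0.535), with 23 to 242 counts per library. *Cdk4* (-0.10), *Cdk6* (0.07), *E2f2* (0.12), *Foxm1* (0.04), *Mybl2* (-0.01), *Btg1* (-0.01) and *Klf2* (0.18), which cover the CDKs, an E2F, activators of mitotic genes and factors of T cell quiescence, all had an adjusted p above that of *Cdkn1b*, and the signs of *E2f2* and *Foxm1* were negative with edgeR and that of *Mybl2* positive without WT replicate 3.

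Markers of cell states and of other cell types were read in the same libraries. The 10 markers of activated and memory-phenotype CD8 T cells summed to between 816 and 1160 CPM in WT mice and between 1270 and 1460 CPM in BIT mice, without overlap, and at an unadjusted p below 0.05, 6 of the 10 were higher and 1 lower, beside 4.25% and 4.32% of all genes. *Il2rb*, the interleukin-2 receptor β chain, was the 1 gene of this list to pass adjustment, at 253, 203 and 273 CPM in WT mice and 393, 443 and 456 CPM in BIT mice (log2FC 0.77, adjusted p = 0.025 by limma-voom). In the summed level WT replicate 3 was the highest of the WT mice. In WT replicate 3 the granzyme genes of that list, singled out after their values were seen, also stood high: *Gzmb* was at 34.7 CPM and *Gzmk* at 12.3 CPM, against 2.10 to 12.2 and 1.07 to 3.33 CPM in the other 5 libraries. On plain CPM *Ccl5* and *Il2ra* were highest in that library as well. The rest of the list was highest in BIT mice: *Cd44*, *Il2rb* and *Cxcr3* in BIT replicate 3, *Ly6c2* in BIT replicate 1, and *Eomes* and *Tbx21* in BIT replicate 2. Erythroid markers (6 genes) summed to between 2.71 and 14.2 CPM in WT mice and reached 51.0 CPM in BIT replicate 2, the library in which most MCM genes were highest. The summed levels of 8 B cell markers (37.1 to 46.1 and 29.7 to 37.4 CPM), 4 plasma cell (21.9 to 28.3 and 20.3 to 23.5), 10 myeloid and dendritic (13.5 to 25.9 and 11.4 to 16.4), 3 NK cell (1.50 to 2.68 and 1.68 to 3.08) and 3 γδ T cell markers (4.33 to 5.10 and 3.71 to 4.86), given for WT and then BIT mice, had overlapping ranges. The myeloid and plasma cell sums were highest of all 6 libraries in WT replicate 3, the library in which the mitotic genes were highest. The myeloid integrin *Itgam*, singled out after its values were seen, was at 4.93 CPM there against 0.964 to 1.39 CPM elsewhere. *Cd68*, *Xcr1* and *Zbtb46* of that list were also highest there on plain CPM. *Lyz2*, *Csf1r*, *Adgre1* and *Siglech* were instead highest in WT replicate 2, *Flt3* in BIT replicate 3 and *S100a8* in BIT replicate 2. Of the 4 thymocyte markers, *Rag2* was at 0 throughout and *Rag1* and *Ptcra* had at most 1 count in any library, while *Dntt*, which carried the sum, was at 4.73 to 7.63 CPM in WT mice and 2.07 to 2.78 CPM in BIT mice. The part of these cell types, and of the *Xist* signal of WT replicate 3, in the values of the cell cycle genes was not tested.

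The promoters of the S phase and mitotic genes held different letters, a description that uses the expression values only to mark which genes were tested. The windows held the 250 bases before and 50 bases after the start of each gene's Ensembl canonical transcript in GRCm39, searched on both strands. For several genes, among them *Cdk1*, *Ccnd2*, *Ccnd3*, *Ccne1*, *Cdca8* and *Stmn1*, this start lies inside the annotated gene. An E2F core (TTCCCGC or TTGGCGC) was found in 8 of 16 S phase genes and 2 of 22 mitotic genes (9.09%). The share was 8.14% of 21757 promoters of protein-coding genes and 11.6% of the 11303 whose genes were tested. A cell cycle homology region (TTTGAA or TTCGAA) was found in 2 of 16 S phase genes (12.5%) and 13 of 22 mitotic genes (59.1%), against 18.7% of all and 15.8% of those tested. The CCAAT box, which can share bases with TTGGCGC, was found in 56.2% of S phase genes, 72.7% of mitotic genes, 39.9% of all promoters and 40.2% of those tested. Both a homology region and a CCAAT box were found in 12 of 22 mitotic genes (54.5%), against 8.25% of all promoters and 6.87% of those tested. The promoter of *Ccnd2* held a homology region and that of *Ccnd3* an E2F core and a CCAAT box. A match of letters is no proof of a bound site.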

How the data were processed

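The CD4-CD8+ T cells of 3 WT and 3 BIT mice gave 6 libraries of stranded total RNA depleted of ribosomal RNA. The authors deposited estimated counts per gene, from Cutadapt 1.18, STAR 2.7.0f and RSEM 1.3.1 on GRCm39 with Gencode M38 (versions from the submitters' processing notes, the strand setting of RSEM not given in the sources used here). RSEM shares out reads that match several genes, so genes with near-identical copies are less certain. Of the 258 values of the members, 235 were whole numbers. The counts were rounded, filtered with filterByExpr (edgeR 4.0.16) and fitted without covariates by limma-voom with quantile normalization (limma 3.58.1, R 4.3.3). The study names this normalization and algorithm, while the rounding, the filter and the lack of covariates were chosen here. The p-values were adjusted by Benjamini and Hochberg over all 16105 genes kept, at a threshold of 0.05, and a two-sided exact permutation test over mice was run beside them for single genes. CPM is counts-per-million of the library total, and CPM per kb divides it by the joined length of all annotated exons of the gene. At 0 counts a gene may have up to 3, which is 0.0567 to 0.0801 CPM by library and covers counting error only. The other settings were TMM, edgeR's quasi-likelihood fit, DESeq2 1.42.0, omission of the filter, a minimum mean of 1 CPM, weights by sample quality, a block by replicate number, a batch term for replicate 3, replicates 1 and 2 alone, and omission of each mouse. Overlap of the groups in plain CPM was added after the data were seen. Positions, starts of Ensembl canonical transcripts and exon lengths came from Gencode M39, which holds 78263 of the 78275 identifiers and all 43 members under their symbols. The code was tested on simulated data. The members, lists and groups were chosen with earlier results of these data known, so no p over the list alone is given. Values per library are given for members at an unadjusted p below 0.05 and a set of genes chosen by role. From the pathway lists, at most 3 genes per list with the smallest unadjusted p below 0.05 are named, with 11 regulators. One listed marker, of γδ T cells, was not matched to a gene.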

Additional observations from a re-analysis of the deposited data

How the results depend on the processing

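The number of genes called was 22, against 4 at an adjusted p below 0.01 and 2-fold, 14 with edgeR, 125 with DESeq2, 42 with replicate 3 as a batch, 71 in replicates 1 and 2 alone and 1 to 37 with a mouse left out. No member passed an adjusted p of 0.05 under any of these settings. Of the named pathway genes, *Rfc1* passed with DESeq2 (log2FC 0.37, adjusted p = 0.032). *Klf4* passed in replicates 1 and 2 alone (log2FC -1.95, adjusted p = 0.0476 by limma-voom). Members at an unadjusted p below 0.05 numbered 3, against 5 with TMM, 6 with edgeR, 7 with DESeq2, 7 with quality weights, 8 with replicate 3 as a batch, 8 in replicates 1 and 2 alone and 1 to 7 with a mouse left out (1 without WT replicate 2, 7 without WT replicate 1). With the replicate number as a block 6 members were at this threshold, while 21 genes in all passed an adjusted p of 0.05. Over all 16105 genes, those at an unadjusted p below 0.05 numbered 1380, against 1334 with TMM, 1198 with edgeR and 1161 with DESeq2. They numbered 2002 with quality weights, 2005 with the block and 2316 with replicate 3 as a batch. In replicates 1 and 2 alone they were 2311 of 16185 genes. Deviations of same-numbered mice correlated at 0.139, 0.0255 and 0.332, and WT replicate 2 correlated best with BIT replicate 1 (0.244), so the numbers were not taken as pairs, although both mice numbered 3 deviated together.
The median log2FC of the S phase genes was 0.17 in replicates 1 and 2 alone and 0.037 to 0.128 with a mouse left out. For the mitotic genes it was 0.09 and -0.598 (without WT replicate 1) to -0.023 (without WT replicate 3), and for the D cyclins 0.256 to 0.344 with a mouse left out. Among 62 genes (the 43 members and the named pathway genes that were tested) and 927 alternative values, 82 values of 24 genes were on the other side of 0. In replicates 1 and 2 alone these were 0.118 for *Rrm2*, 0.098 for *Mki67*, 0.255 for *Top2a*, 0.083 for *Cdk1*, 0.354 for *Ccna2*, 0.157 for *Stmn1*, 0.258 for *Aurka*, 0.115 for *Cenpe*, 0.08 for *Cenpf*, 0.347 for *Kif11*, 0.393 for *Tpx2* and 0.44 for *Mybl2*, and with quality weights 0.175 for *Top2a*, 0.113 for *Ccna2*, 0.016 for *Stmn1*, 0.088 for *Kif11*, 0.15 for *Tpx2* and 0.118 for *Mybl2*. With TMM, edgeR and DESeq2 they were -0.172, -0.26 and -0.256 for *Aurkb*, -0.014, -0.019 and -0.013 for *Cdc20*, -0.03, -0.089 and -0.082 for *Cdc45* and -0.147, -0.25 and -0.246 for *Tk1*. With edgeR and DESeq2 they were -0.01 and -0.004 for *E2f2*, -0.02 and -0.014 for *Foxm1* and -0.233 and -0.228 for *Nusap1*. With the replicate block they were -0.004 for *Nusap1* and -0.015 for *Tk1*, and with replicate 3 as a batch -0.016 for *Tk1*. Without the filter *Btg1* was at 0.001, and at a minimum mean of 1 CPM *Mybl2* was at 0.03. With a mouse left out the values were -0.607 to 0.013 for *Ccne2*, -0.58 to 0.032 for *Rrm2*, -0.78 to 0.181 for *Mki67*, -0.405 to 0.189 for *Top2a*, -0.804 to 0.04 for *Ccna2*, -0.312 to 0.425 for *Aurkb*, -0.058 to 0.193 for *Cdc20*, -0.323 to 0.1 for *Stmn1*, -0.084 to 0.075 for *Btg1*, -0.044 to 0.176 for *Cdk6*, -0.049 to 0.428 for *E2f2*, -0.071 to 0.194 for *Foxm1*, -0.325 to 0.305 for *Mybl2*, -0.001 to 0.046 for *Rbl2*, -0.354 to 0.118 for *Aurka*, -0.092 to 0.179 for *Cdc45*, -0.612 to 0.08 for *Kif11*, -0.042 to 0.116 for *Mcm7*, -0.414 to 0.411 for *Nusap1*, -0.12 to 0.26 for *Tk1* and -0.346 to 0.246 for *Tpx2*. The cause of these shifts was not tested. Counts under 100 per library, as for *Aurkb*, *Bub1* and *Tk1*, limit what these libraries can show of the rarer mitotic genes.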
